A study of Mus musculus with 2 samples.

Results

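Imprinted genes are transcribed mainly from the allele inherited from one parent. The mark is DNA methylation laid down in the egg or the sperm at control regions, and it is copied at each cell division of the embryo. Many genes expressed from the paternal allele favour growth of the embryo, and many expressed from the maternal allele restrain it, so the 2 classes are often set against each other. A list of 35 imprinted mouse genes was followed here, 17 known as maternally expressed, 16 as paternally expressed and 2, Grb10 and Gnas, whose expressed allele depends on tissue or isoform. A gene was taken as measured when a probe carried its symbol, or an older name of it, in the platform annotation. This gave 32 of the 35 genes, among 16444 named genes on the array. Of these, 31 were found under their own symbol and Meg3 under its older name Gtl2, and each of the 32 has 1 probe. No probe carries the name of Peg10, Nnat or Mkrn3, which are all paternally expressed, so 13 paternally expressed genes could be followed. Igf2 has M6pr among its older names, but M6pr is now the symbol of another gene and its probe was not used.

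The study compared mouse Flk-1-positive early mesodermal cells of 2 genotypes, with 1 array per group and no replicate. The first came from embryonic stem cells in which both alleles of AU019823 had been disrupted by gene trapping, that is by insertion of a cassette that cuts transcripts short. The second came from revertant embryonic stem cells, described as almost wild-type. Both had been differentiated on OP9 stromal cells, a support for blood formation, and sorted by fluorescence for Flk-1, the product of Kdr, which marks early mesoderm. The labels give day 4.5 for both samples, a coculture of 4 days, and 300000 gene-trapped and 350000 revertant cells. They also give each sample a different code, cl.3 for gene-trapped and cl.4 for revertant cells, with no meaning stated, so a difference between clones and one between genotypes cannot be told apart. Each difference below sets 1 library against 1 library, and no p-value can be given.

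Signals are linear spot intensities. The median probe signal was 38.6 on the gene-trapped array and 47.5 on the revertant array, and a probe was above background past 22.3 and 25.0, the mean of the blank spots plus 2 SD. Log2 differences are gene-trapped minus revertant after background correction and quantile normalization, which removes the overall gap in brightness between the arrays. Spots of the positive controls, repeated 24 times per type, had SDs of the log2 difference of 0.107 and 0.0988. These were taken after background correction but before quantile normalization, and are a spread between spots and not between cultures. The array does not tell the 2 parental alleles apart, so all values are summed over both alleles. In RNA of a whole sorted population, fewer cells of a type and less RNA per cell cannot be told apart either. Of 12 markers of Flk-1-positive mesoderm, 12 were above background on both arrays. Their median log2 difference was 0.18, with 7 above 0. At least 2-fold higher in gene-trapped cells were 2, Mixl1 at 1.99 and Etv2 at 1.30, where 0.334% of all genes were. Kdr itself had signals of 537 in gene-trapped and 1025 in revertant cells, a difference of -0.65, and -2.04 with the local background of the spots subtracted.

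Imprinted genes as a set were not shifted strongly, and a few bright members carried the largest differences. Both arrays held 31 of the 32 genes above background, and the revertant array alone held Rasgrf1. In gene-trapped cells Igf2 alone of the 31 passed 2-fold downward, where 1.08% of all 13753 named genes above background were that much lower. At least 2-fold higher were 0 of the 31, where 0.334% of all genes were. A difference below 0 was found for 19 of the 31 genes (61.3%), against 46.6% of all genes. Their median log2 difference was -0.096, against 0.0079 over all genes. Past 1.5-fold, 4 genes were lower (Igf2, Sgce, Igf2r and Cdkn1c), or 12.9%, against 3.52% of all genes, and 0 were higher, against 2.28%.

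These counts differed in other settings. In the authors' deposited table, which subtracts about the blank level, scales each array by 1 constant and has values for more genes, Igf2 and Grb10 were the 2 genes at least 2-fold lower, where 4.02% of all genes with a value in both columns were, and 21 of 31 genes lay below 0, against 48.3% of all genes. With the local background read around each spot subtracted, Sgce was the 1 gene past 2-fold downward, against 1.35% of all genes, and Tssc4 the 1 gene past 2-fold upward, against 2.04%. Below 0 were then 15 of 31 genes, against 55.2% of all genes, so the larger share of imprinted genes below 0 was not seen in that setting. Nor were the genes past 1.5-fold all lower there. Sgce at -1.16, Peg3 at -0.83, Mest at -0.61 and Cdkn1c at -0.60 were lower. Tssc4 at 1.13, Phlda2 at 0.96 and Ube3a at 0.62 were higher, while Igf2 had -0.0049 and Igf2r 0.051. The Igf2r value rests on remaining signals of 7.2 in gene-trapped and 6.8 in revertant cells, too low to judge a difference. The share of all genes past 1.5-fold was not computed in that setting.

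**Figure D1:**
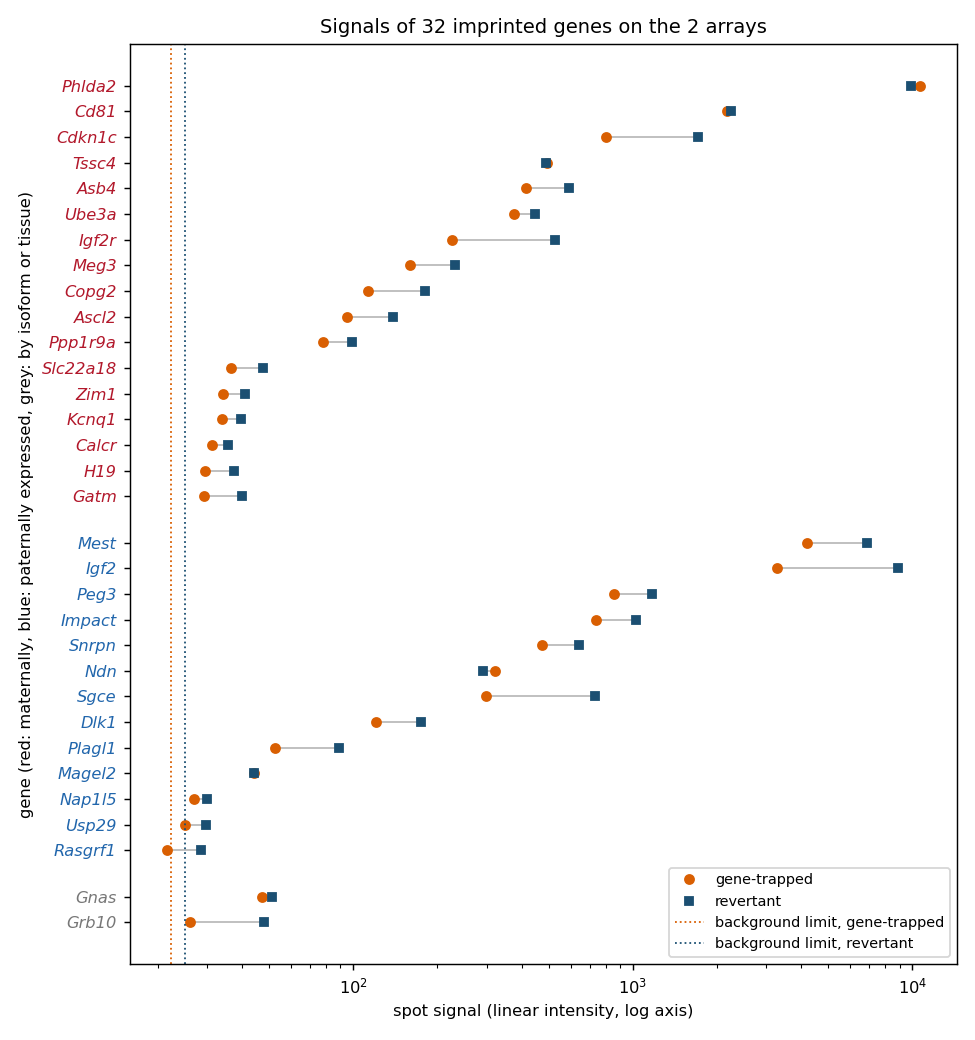
Spot signal (linear intensity on a log axis) of the 32 imprinted genes with a probe, with circles for the gene-trapped array, squares for the revertant array and dotted lines for each array's background limit. Phlda2, Mest, Igf2, Cd81 and Cdkn1c are bright on both arrays, while H19, Gatm, Nap1l5 and Usp29 lie near the background limits.

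The DNA before the start sites of 5 members is printed. They are Igf2 and Igf2r, a ligand and its clearing receptor, Mest and Phlda2, the brightest members beside Igf2, and Peg3, whose start lies close to that of Usp29. Each window holds the 250 bases before a start site in RefSeq, build GRCm38.p6, 5′ to 3′ on the gene's strand. No window was available for Sgce and Cdkn1c, whose differences were larger than those of Mest and Peg3. Nor was there one for H19, Impact, Kcnq1 and Peg10. Capitals mark TGCCGC or its reverse complement GCGGCA, the hexamer that the zinc finger protein ZFP57 is known to bind when methylated. Where a gene has several windows, that with the most CpG dinucleotides is shown. The Igf2 window, chr7:142658805-142659054 on the minus strand, holds 22 CpG and no match of the hexamer.
Igf2: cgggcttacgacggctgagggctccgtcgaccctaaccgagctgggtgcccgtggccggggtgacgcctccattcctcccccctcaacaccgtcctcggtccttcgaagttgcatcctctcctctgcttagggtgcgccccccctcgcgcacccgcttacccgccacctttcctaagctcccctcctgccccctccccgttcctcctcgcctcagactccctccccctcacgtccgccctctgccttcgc
The Igf2r window, chr17:12769707-12769956 on the minus strand, holds 27 CpG.
Igf2r: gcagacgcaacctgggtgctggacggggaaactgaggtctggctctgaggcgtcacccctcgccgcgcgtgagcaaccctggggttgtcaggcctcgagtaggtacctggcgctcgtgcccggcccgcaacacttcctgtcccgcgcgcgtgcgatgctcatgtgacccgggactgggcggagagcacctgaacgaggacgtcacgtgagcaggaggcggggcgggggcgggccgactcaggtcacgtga
The Mest window, chr6:30737800-30738049 on the plus strand, holds 14 CpG and 2 matches of the hexamer.
Mest: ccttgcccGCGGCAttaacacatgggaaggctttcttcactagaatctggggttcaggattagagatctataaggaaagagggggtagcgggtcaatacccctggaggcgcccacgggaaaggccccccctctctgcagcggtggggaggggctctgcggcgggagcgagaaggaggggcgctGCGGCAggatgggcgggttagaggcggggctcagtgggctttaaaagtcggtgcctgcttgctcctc
The Peg3 window, chr7:6730420-6730669 on the minus strand, holds 8 CpG and shares 163 bases with the Usp29 window on the other strand.
Peg3: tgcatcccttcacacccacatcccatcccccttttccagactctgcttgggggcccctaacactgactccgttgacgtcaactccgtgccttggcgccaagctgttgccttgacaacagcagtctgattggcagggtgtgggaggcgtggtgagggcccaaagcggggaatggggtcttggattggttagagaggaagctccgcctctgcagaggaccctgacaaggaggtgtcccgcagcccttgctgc
The Phlda2 window, chr7:143502525-143502774 on the minus strand, holds 21 CpG.
Phlda2: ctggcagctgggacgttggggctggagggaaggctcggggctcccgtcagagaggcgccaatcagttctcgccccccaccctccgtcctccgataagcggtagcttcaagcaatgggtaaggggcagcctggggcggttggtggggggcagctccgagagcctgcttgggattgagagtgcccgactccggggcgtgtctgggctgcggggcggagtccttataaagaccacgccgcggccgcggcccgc
Over the 29 listed genes with such a window, 7 held the hexamer on either strand (Mest, Copg2, Plagl1, Meg3, Zim1, Nap1l5 and Calcr), which is 24.1%, against 9.84% of all 26994 genes with a window. By parental class they were 3 of 13 paternally and 4 of 14 maternally expressed genes. A gene with several windows has more places for a match. Counted by window, 8 of 45 windows of listed genes held the hexamer, or 17.8%, against 8.68% of all 32817 windows. The hexamer holds a CpG itself, and all 5 printed windows have more CpG than the median of 6.0 over all windows. A match of letters is a description and not a binding site, and the array does not report on methylation.

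The paternally expressed genes had a lower median difference than the maternally expressed genes in the main setting, but the gap was small. The median log2 difference was -0.18 over 12 paternally expressed genes above background on both arrays and -0.049 over 17 maternally expressed genes, a gap of -0.13 between the medians. Below 0 were 9 of the 12 paternally and 9 of the 17 maternally expressed genes, against 46.6% of all genes. The range was -1.06 to 0.42 in the paternal class and -0.83 to 0.51 in the maternal class, so the classes overlapped. The gap was 0.0085, with the sign turned, in the authors' deposited table, and -0.0037 with the scanner's local background subtracted. It was not tested, since genes are not replicates of a condition.

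Brightness matters for reading these counts, because the background correction adds a constant of 50 that draws the differences of dim genes toward 0. Among the dimmest of 3 equal classes of named genes, with mean signals up to 41.8, 0 of 4585 genes passed 2-fold in either direction. The 8 imprinted genes in it ran from -0.32 to 0.037. In the middle class, up to a mean signal of 152, 8 imprinted genes had a median of -0.093 and 0 of them passed 2-fold. In the brightest class 2.88% of 4584 genes were at least 2-fold lower, as was 1 of 15 imprinted genes. There the median was -0.22 over 7 paternally expressed genes, 6 of them below 0, and -0.050 over 8 maternally expressed genes, 4 of them below 0. Over all genes of the brightest class the median was 0.032, and 45.6% were below 0.

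**Figure D2:**
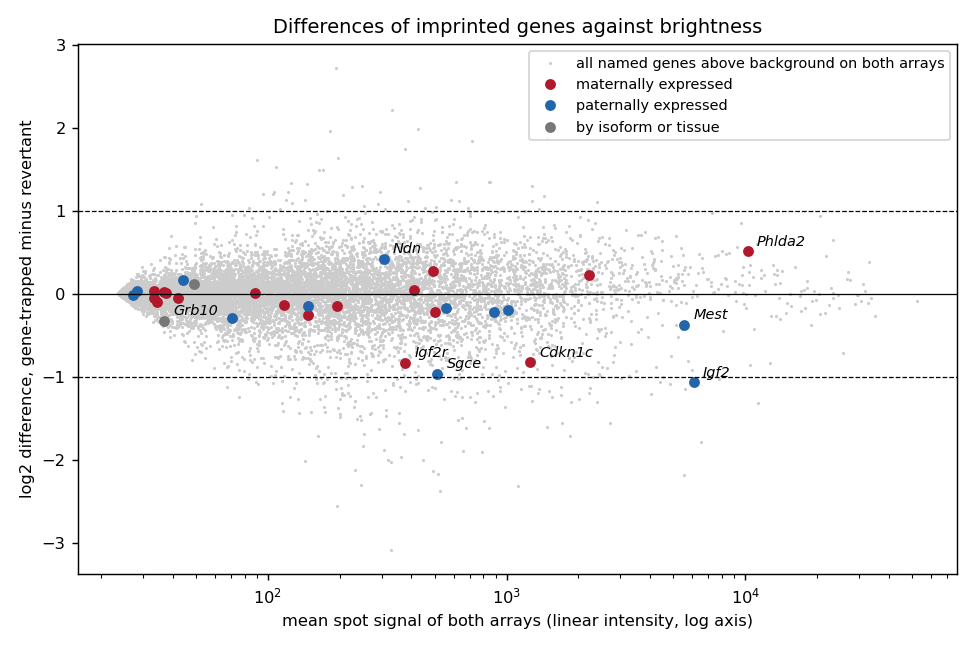
Log2 difference, gene-trapped minus revertant, against the mean spot signal of both arrays (log axis), with small grey points for all named genes above background on both arrays, coloured points for 31 imprinted genes and dashed lines at 2-fold. Igf2 at -1.06 lies past the lower line, and Sgce, Igf2r and Cdkn1c lie just above it, while dim members crowd around 0.

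Among the paternally expressed genes, Igf2 had the largest difference. It encodes the insulin-like growth factor that drives growth of the embryo and is expressed by extraembryonic and early mesoderm. Its signal was 3270 in gene-trapped cells and 8895 in revertant cells (probe M300000003), a log2 difference of -1.06 or 2.09-fold lower, the 124th lowest of 13753 genes. This value depends on how the surroundings of the spot are treated. The local background read by the scanner stood at 71.2% of the spot signal on the gene-trapped array and at 90.4% on the revertant array. After its subtraction the remaining signals were 943 in gene-trapped and 856 in revertant cells, and the normalized log2 difference was -0.0049. The other settings gave -1.30 to -0.99, and correction for spot position put it at -0.99, which is just short of 2-fold.

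Sgce was lower by nearly as much and did not share that dependence. It encodes epsilon-sarcoglycan, a membrane protein of the dystrophin complex, and lies head to head with Peg10, for which no probe was named. Signals were 297 in gene-trapped and 731 in revertant cells (probe M200002739), a log2 difference of -0.96 or 1.95-fold lower. The local background was 17.4% of the signal on the gene-trapped array and 20.5% on the revertant array, and the difference ran from -1.16 with that background subtracted to -0.93 over all settings.

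Mest, a paternally expressed gene that encodes a hydrolase-like membrane protein of mesoderm, was among the brightest members. Its signals were 4201 in gene-trapped and 6883 in revertant cells, with a log2 difference of -0.37. Local background was only 2.71% and 7.42% of these signals, the lowest shares on both arrays among the 32 genes, and the difference was -0.61 with it subtracted. Plagl1, which encodes a zinc finger transcription factor that acts on other imprinted genes, had 52.5 in gene-trapped and 88.9 in revertant cells, a log2 difference of -0.28. Peg3, which encodes a large zinc finger protein, had 859 in gene-trapped and 1171 in revertant cells, a log2 difference of -0.19. Both lay below 0 under every setting tried, Plagl1 between -0.66 and -0.11 and Peg3 between -0.83 and -0.077.

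Dlk1, Impact and Snrpn had differences of similar small size. Dlk1, a Notch-like ligand also known from preadipocytes, had 121 in gene-trapped and 175 in revertant cells, a log2 difference of -0.14. Impact, a regulator of the kinase GCN2 in translation, had 739 in gene-trapped and 1028 in revertant cells, a log2 difference of -0.22. Snrpn, which encodes a spliceosomal protein, had 474 in gene-trapped and 643 in revertant cells, a log2 difference of -0.17. All 3 turned above 0 with the local background subtracted, at 0.086, 0.44 and 0.21.

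Necdin and its neighbour went the other way in the main setting. Ndn, which encodes necdin, a MAGE family protein that restrains growth of neurons and blood stem cells, had 322 in gene-trapped and 291 in revertant cells, a log2 difference of 0.42 and the highest of the paternal class. It stayed above 0 in every setting, from 0.14 to 0.54. Magel2, another MAGE family gene next to it, had 44.3 on both arrays, a log2 difference of 0.17 once the overall brightness of the arrays was made equal. With the local background subtracted Magel2 had -0.011. Usp29 and Nap1l5 lay near the background limit, with signals of 25.0 and 27.0 in gene-trapped cells and 29.7 and 29.9 in revertant cells, and their differences were -0.014 and 0.037. Rasgrf1, an exchange factor for Ras known from brain, was not well above background in gene-trapped cells at 21.6, against 28.4 in revertant cells. In the main setting alone this bounds it at 1.05-fold lower or more. That bound, 0.069 in log2 after quantile normalization, is smaller than the control spots' larger SD of 0.107, which was taken before it. Its difference ran from -0.23 to 0.15 over the settings with a value, so its direction was not settled.

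Of the maternally expressed genes, Igf2r and Cdkn1c, both known to restrain growth, had the lowest differences. Igf2r encodes the receptor that binds IGF2 and carries it to the lysosome. It had 226 in gene-trapped and 527 in revertant cells (probe M300003763), a log2 difference of -0.83. Local background made up 96.8% and 98.7% of these signals, and with it subtracted the difference was 0.051. The signals left were then only 7.2 in gene-trapped and 6.8 in revertant cells. At such low values the added constant keeps differences small, so 0.051 does not show that a difference was absent. The other settings gave -0.97 to -0.78. Cdkn1c encodes the cyclin-dependent kinase inhibitor p57. It had 802 in gene-trapped and 1705 in revertant cells (probe M200011642), a log2 difference of -0.82, and ran from -0.92 to -0.60 over all settings.

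Phlda2, a maternally expressed gene that restrains growth of the placenta, was the brightest member on both arrays and the highest in difference. Its signals were 10623 in gene-trapped and 9854 in revertant cells (probe M200004673), a log2 difference of 0.51. Local background made up 17.5% of the signal on the gene-trapped array and 51.5% on the revertant array, and the difference ran from 0.25 under median scaling to 0.96 with it subtracted. Tssc4 and Cd81 were also above 0 in every setting. Tssc4, a gene of the same domain, had 494 in gene-trapped and 488 in revertant cells, a log2 difference of 0.28, and 1.13 with the local background subtracted. Cd81, which encodes a tetraspanin of the cell surface, had 2178 in gene-trapped and 2244 in revertant cells, a log2 difference of 0.22. Its range over the settings was 0.097 to 0.33.

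H19, a long non-coding RNA that shares its enhancers with Igf2 on the other parental chromosome, was dim. Its signals were 29.4 in gene-trapped and 37.5 in revertant cells, a log2 difference of -0.049 that ran from -0.32 to 0.14 and turned sign under 75th percentile scaling. Meg3, the maternal non-coding RNA beside Dlk1, had 159 in gene-trapped and 231 in revertant cells, a log2 difference of -0.15, but 0.41 with the local background subtracted. Both RNAs lay within the spread seen for genes of like brightness. In the dimmest class 5 to 95% of all genes ran from -0.12 to 0.11, and in the brightest from -0.76 to 0.61.

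Copg2, Asb4 and Ascl2 had moderate signals and small negative differences. Copg2, which encodes a coat protein of vesicles and overlaps the end of Mest, had 113 in gene-trapped and 181 in revertant cells, a log2 difference of -0.26 that was negative in every setting. Ascl2, a transcription factor needed for the placenta, had 94.6 in gene-trapped and 139 in revertant cells, a log2 difference of -0.13, also negative throughout. Asb4, an adaptor gene of ubiquitin ligases known from vascular differentiation, had 415 in gene-trapped and 592 in revertant cells, a log2 difference of -0.22. It was 0.28 with the local background subtracted. Ube3a, the ubiquitin ligase whose imprinting is known from neurons, had 375 in gene-trapped and 445 in revertant cells, a log2 difference of 0.048, and Ppp1r9a, a neuronal actin-binding protein gene, had 77.9 in gene-trapped and 98.9 in revertant cells, a difference of 0.010.

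The remaining maternally expressed genes were dim on both arrays. Slc22a18, Zim1, Kcnq1, Calcr and Gatm had signals between 29.2 and 36.4 in gene-trapped cells, and between 35.6 and 47.7 in revertant cells. Their differences lay between -0.096 for Gatm, the gene of an enzyme of creatine synthesis, and 0.034 for Calcr, the calcitonin receptor gene. Kcnq1, a potassium channel gene known from heart, had 0.025.

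Grb10 and Gnas were kept out of both classes. Grb10, which encodes an adaptor that dampens insulin and IGF signalling, had 26.1 in gene-trapped and 47.9 in revertant cells (probe M300002043), a log2 difference of -0.32. The gene-trapped signal lay close to the background limit of 22.3, and in the authors' deposited table, where a value near the blank level is subtracted, the difference was -1.71, with values of 5.10 in gene-trapped and 16.7 in revertant cells. Gnas, the gene of the stimulatory G protein alpha subunit, had 47.2 in gene-trapped and 51.2 in revertant cells, a log2 difference of 0.12. Its 1 probe cannot separate the maternal, paternal and biallelic transcripts of that locus.

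Neighbours within an imprinted domain, which share control regions, did not all share a size of difference in the main setting. In the H19-Igf2 domain the maternally expressed H19 had -0.049 and the paternally expressed Igf2 -1.06. H19 was dim, where the added constant draws differences toward 0, so the 2 sizes cannot be compared directly. With the local background subtracted, H19 had -0.069 and Igf2 -0.0049. In the adjoining Kcnq1 domain, where all 7 listed genes are maternally expressed and measured, differences ran from -0.82 for Cdkn1c to 0.51 for Phlda2, with 3 below 0 and 4 above. In the Peg10-Sgce domain Sgce had -0.96, whereas its maternally expressed neighbours Asb4, Ppp1r9a and Calcr had -0.22, 0.010 and 0.034. Calcr was dim as well. The Snrpn-Ube3a domain had 1 of 4 measured genes below 0 and a median of 0.11.

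Some other neighbours lay close together in the main setting, although they are expressed from opposite alleles. Mest and Copg2 had -0.37 and -0.26, and Dlk1 and Meg3 had -0.14 and -0.15. With the local background subtracted, Mest and Copg2 had -0.61 and -0.39, and Dlk1 and Meg3 lay apart at 0.086 and 0.41. In the Peg3 domain, Peg3 had -0.19, while the dim genes Usp29 and Zim1 had -0.014 and 0.010. Pairs of this kind compare single probes on 1 pair of arrays, so the closeness was not tested.

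**Figure D3:**
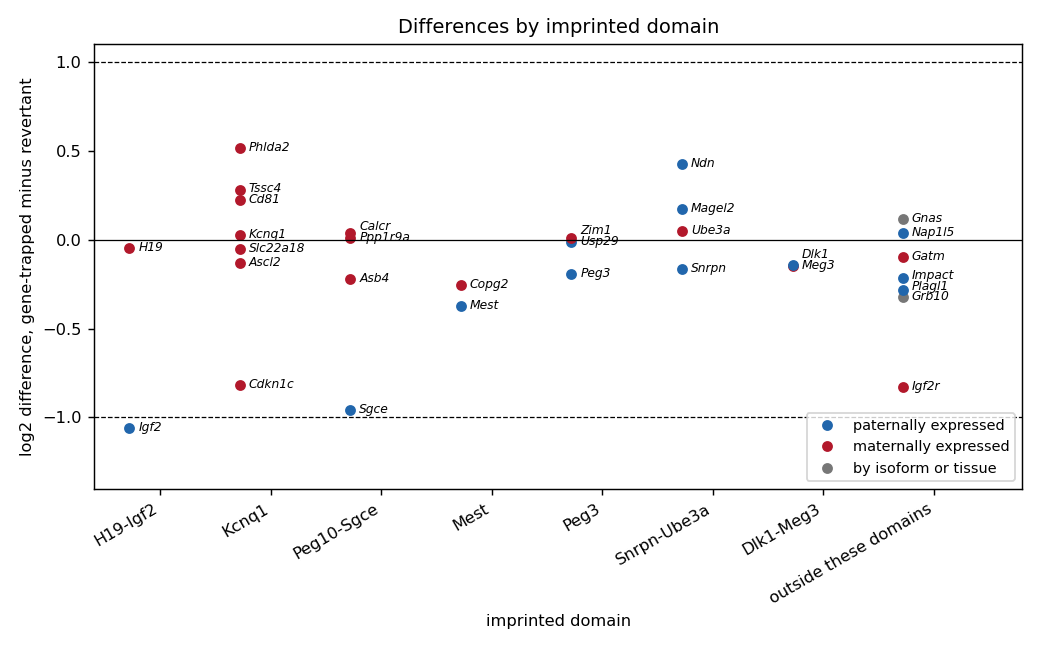
Log2 difference, gene-trapped minus revertant, of 31 imprinted genes by domain, with blue for paternally expressed genes, red for maternally expressed genes, grey for Grb10 and Gnas, and dashed lines at 2-fold. In the main setting, shown here, the Kcnq1 domain spans -0.82 to 0.51 and the Dlk1-Meg3 pair lies together at -0.14 and -0.15.

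Further imprinted genes, from a list of 35 others, lay close to the middle of all genes in the main setting. Of 26 with a probe, 24 were above background on both arrays, 0 passed 2-fold, 13 were below 0, and the median was -0.0079. Casd1, a neighbour of Sgce, had 47.8 in gene-trapped and 103 in revertant cells, a log2 difference of -0.53, and -0.057 with the local background subtracted. Airn, the paternal non-coding RNA that silences Igf2r in cis, was found under its older name 2810051F02Rik and had 43.2 in gene-trapped and 83.7 in revertant cells, a difference of -0.41. Tspan32 and the amino acid transporter gene Slc38a4 had -0.41 and -0.25, and Nap1l4, a histone chaperone gene at the edge of the Kcnq1 domain, had 0.35. With the local background subtracted, Slc38a4 turned to 0.38, while Airn and Tspan32 had -0.23 and -0.24 and Nap1l4 0.98. More genes of this list passed 2-fold downward in the authors' deposited table, where 4.02% of all genes did. Casd1 had -1.16 there, Airn -1.03, Tspan32 -1.24, H13 -1.08 and Pon3 -1.27, and the highest was Tfpi2 at 0.82. The authors' values have about the blank level subtracted and no constant added, so dim genes have larger folds in them. H13 at 28.4 and Pon3 at 26.0 in gene-trapped cells lay near the limit of 22.3. In the main setting H13 had -0.22 and Pon3 -0.21. Airn lies within Igf2r, and the strand that its probe reads is not given in the sources used here.

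Genes that lay down, keep or read imprints were measured nearly completely, and none passed 2-fold in the main setting. All 21 genes with a probe, of 22 listed, were above background on both arrays, with a median of 0.065, 10 below 0 and 11 above. Zfp57 itself was near the background limits of 22.3 and 25.0, with 22.8 in gene-trapped and 28.6 in revertant cells, where the added constant keeps differences small. Trim28, the corepressor that ZFP57 recruits, had 1259 in gene-trapped and 2123 in revertant cells, a log2 difference of -0.51. Hells, a chromatin remodeler for DNA methylation, had 842 in gene-trapped and 692 in revertant cells, a difference of 0.51. Uhrf1, which brings DNA methyltransferase to replicated DNA, had 0.33, the histone methyltransferase gene Ehmt2 had -0.43 and the oxidase gene Tet1 -0.33. With the local background subtracted, Ehmt2 turned to 0.40 and Trim28 had -0.17, whereas Hells had 0.52, Uhrf1 0.48 and Tet1 -0.38. In the authors' deposited table Tet2 passed 2-fold downward at -1.06, as did 4.02% of all genes, and Hells was the highest at 0.67. Tet2 was dim, at 24.8 in gene-trapped and 35.3 in revertant cells, and had -0.13 in the main setting.

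In the IGF system the largest difference was that of the signalling receptor. Igf1r, the receptor through which IGF2 acts on growth, had 101 in gene-trapped and 284 in revertant cells, a log2 difference of -0.95, just short of 2-fold, and -0.83 with the local background subtracted. The kinase gene Akt1 had 712 in gene-trapped and 530 in revertant cells, a difference of 0.65, and Igfbp4, a binding protein gene, had 0.49. Irs2 had 0.20 and Igf1 -0.14. With the local background subtracted, Akt1 had 0.14 and Igfbp4 -0.054, while Irs2 had 0.42 and Igf1 -0.093. Over the 18 genes of this list above background on both arrays, 0 passed 2-fold in the main setting, 7 were below 0 and the median was 0.013. In the authors' deposited table Igf1r had -1.32 and Igfbp5 -1.02, where 4.02% of all genes were at least 2-fold lower. Akt1 was the highest there at 0.82. Igfbp5 was dim, at 24.5 in gene-trapped and 34.2 in revertant cells, and had -0.12 in the main setting.

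Markers of other cell types that the cultures could hold went both ways. Of 18 stromal and fibroblast markers, 17 were above background on both arrays, 11 of them below 0 and 6 above, with a list median of -0.21. At least 2-fold lower were 3, Col5a1 at -1.61, Col1a1 at -1.49 and Acta2 at -1.30, where 1.08% of all genes were. The highest was Fn1 at 0.36. Summed signals in this paragraph are spot signals before normalization. The stromal sum was 15619 in gene-trapped and 22830 in revertant cells. Vim, with a normalized difference of -0.084, gave 7596 and 10680 of it. Dcn was not above background on either array. Of 6 trophoblast markers with a probe, 5 were above background on both arrays, with a median of 0.033 and 3 above 0, Plac1 at -0.70, Tfap2c at 0.47, a summed signal of 470 in gene-trapped and 754 in revertant cells, and Tpbpa below the limit on both. Of 10 endoderm markers, 6 were above background on both arrays and Afp, Apoa1, Cer1 and Ttr on neither, with a median of 0.044 and summed signals of 992 in gene-trapped and 1005 in revertant cells. Of 7 neural markers, 6 were above background on both arrays and Pax6 on neither, with summed signals of 634 in gene-trapped and 553 in revertant cells, 4 of the 6 above 0 and a median of 0.049. Otx2 among them had 311 in gene-trapped and 141 in revertant cells, a log2 difference of 1.29, and 0.78 with the local background subtracted. Their part in the differences of imprinted genes was not tested.

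**Figure D4:**
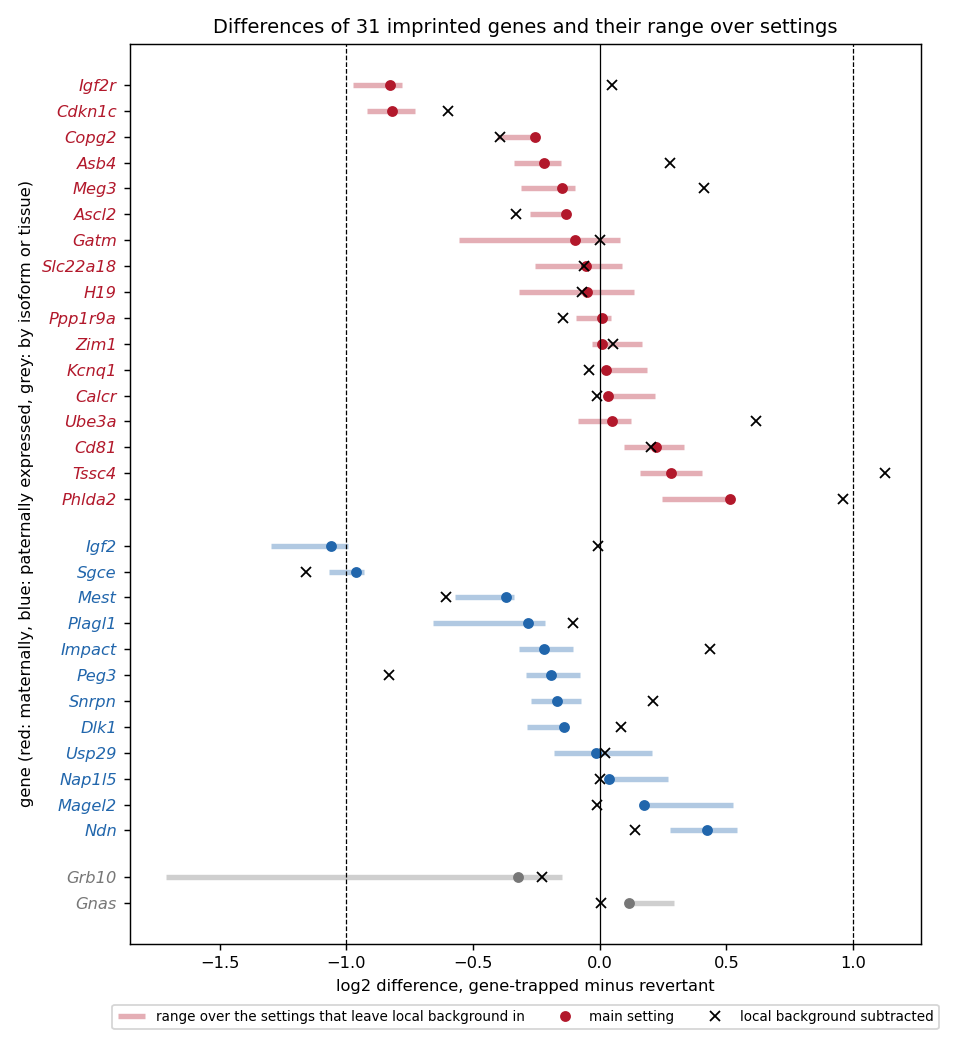
Log2 difference, gene-trapped minus revertant, of 31 imprinted genes, with filled points for the main setting, bars for the range over the settings that keep local background in the signal, crosses for local background subtracted, and dashed lines at 2-fold. Igf2 and Igf2r have crosses near 0 at -0.0049 and 0.051, whereas Sgce and Cdkn1c keep crosses at -1.16 and -0.60. For Igf2r only 7.2 in gene-trapped and 6.8 in revertant cells was left after the subtraction, too low to judge a difference.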

How the data were processed

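Per the labels' protocols, RNA was taken with a micro-column kit, amplified and labelled with Cy5 for a TORAY array. The deposited scanner files hold a linear intensity, the spot median, joined from 3 gains per the file headers. The deposited table of processed intensity values is a straight line of it: the authors subtracted about the blank mean and divided by 1 constant, which puts each column's median at 25. The deposited files name no genome build, and the promoter windows come from RefSeq tables of GRCm38.p6.

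Intensity was corrected with normexp (offset 50, limma 3.58.1, R 4.3.3) on all spots. Control spots and spots with a quality flag were left out, arrays were quantile-normalized, and differences taken on the log2 scale, which was not part of the deposited files. The constant makes folds of dim genes smaller. Of 23471 probes, 16629 carry 1 symbol and 6842 none. The brightest probe by mean spot signal stood for a gene. All members with a probe are accounted for, and up to 5 genes of each further list (other imprinted genes, imprint maintenance, IGF system) with the largest absolute difference are named. Cell type markers, Zfp57 and the genes of these lists named for the authors' table were named outside this rule, after their values were seen. Members, parental classes and lists were chosen with earlier results of these data known. The normalization was tested on simulated data. Tables and plots were made with Python 3.11.15, numpy 2.4.6, pandas 2.3.3 and matplotlib 3.10.9. Precision is limited by the number of arrays, 1 per group.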

Additional observations from a re-analysis of the deposited data

Results flagged for a closer look

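Local background readings, left out of the main setting, were not empty at the spots of imprinted genes. At 30 of the 32 genes it exceeded its own mean plus 2 SD at blank spots on both arrays, limits of 18.0 on the gene-trapped and 16.9 on the revertant array. Its share of the spot signal had a median of 68.1% (2.71% to 96.8%) on the gene-trapped array and 68.5% (7.42% to 99.2%) on the revertant array. Neither this count nor these shares were computed over all named genes, so they are not given as particular to imprinted genes. The share was below 30% on both arrays, a limit set after the values were seen, for 4 genes. With the local background subtracted Sgce had -1.16, Mest -0.61, Copg2 -0.39 and Ndn 0.14, the same signs as in the main setting.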

How the results depend on the processing

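No paired analysis was possible because there is 1 array per group. The maternal median turned to 0.082 under 75th percentile scaling, which puts the median of all genes at 0.15, and to 0.0014 with the local background subtracted. The paternal median was -0.29 under median scaling and -0.0023 with the local background subtracted. The gap between paternal and maternal medians turned to 0.0085 in the authors' table and was -0.0037 with the local background subtracted. Genes at least 2-fold lower numbered 2 (Igf2 and Sgce) under median scaling, offset 16 and no background correction, where 1.48%, 1.73% and 1.65% of all genes were, 2 (Igf2 and Grb10) in the authors' table, against 4.02%, and 0 after position correction, where 138 of 13753 genes were. At least 2-fold higher was 1 gene, Tssc4, with the local background subtracted, against 2.04% of all genes. By construction, dim genes have larger folds with a smaller offset. Otherwise the cause was not tested. Of 31 genes, 15 kept their sign in every setting and 24 did so when the setting with local background subtracted was left out, which changed 12 signs. The 15 include Igf2, Nap1l5 and Gnas, whose differences were close to 0 in that setting, at -0.0049, 0.00023 and 0.0035. The means of a gene's probes changed nothing, since each has 1 probe. Adding Grb10 and Gnas to the maternal class left its median at -0.049, and genes imprinted widely in the embryo gave a maternal median of -0.10. Near the background limit, Usp29, Nap1l5 and Grb10 did not pass 6 SD on both arrays.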
